A study of Mus musculus with 12 samples.

Results

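Genes that restrain bone morphogenetic protein (BMP) signalling were followed in MC3T3-E1 cells, a line of mouse osteoblast precursors from calvaria, given the inflammatory cytokine TNFa, the growth factor BMP4, or both. The 8 genes were listed by name, with earlier results of these data known. They were the secreted antagonists Nog, Fst and Fstl1, the pseudoreceptor Bambi, the ubiquitin ligases Smurf1 and Smurf2, and the corepressors Ski and Skil. They are 8 of the 25124 entries of the deposited table, each present once, and all 8 were among the 11765 entries tested, which had a mean log2 value of at least 4. Bambi, at 4.60, stood closest to that minimum. The 4 groups had 3 polyA RNA-seq libraries each: untreated cells, TNFa at 10 ng/mL, BMP4 at 10 ng/mL, and TNFa followed by BMP4 at those doses. All groups shared 30 min in medium with 2.5% serum beforehand. The labels differ on timing: the protocol puts TNFa 30 min ahead of a 3 h BMP4 stimulation, and the characteristics list 3 h for either agent. TNFa titles include an unexplained tag, p65. All cells are of 1 line with no named genetic change. No label says that replicates were separate cultures, so p-values measure the spread between these samples, which may be technical.

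BMPs bind paired serine/threonine kinase receptors, which phosphorylate Smad1, Smad5 and Smad9. These join Smad4 and act on genes in the nucleus, where in osteoblast precursors they favour bone formation. Restraint acts at each step. Noggin (Nog) and follistatin (Fst) bind ligands outside the cell, Bambi resembles a receptor without a working kinase, Smurf1 and Smurf2 mark Smads and receptors for degradation, and Ski and SnoN (the product of Skil) hold Smad complexes in a repressive state.

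The neighbouring sequence of the paired ligase genes is shown because Smurf1 and Smurf2 responded to different factors. RefSeq promoter sequences (build GRCm38.p6) matched 4 of the 8 genes by symbol: Fstl1, Smurf1, Smurf2 and Ski. The windows are the 250 bases before the start site on the gene's own strand, chr5:144965831-144966080 (minus strand) for Smurf1 and chr11:106920716-106920965 (minus strand) for Smurf2. Capitals mark GGCGCC, a GC-rich element bound by BMP-activated Smads, and CAGAC, the core of the Smad-binding element, on either strand.
Smurf1: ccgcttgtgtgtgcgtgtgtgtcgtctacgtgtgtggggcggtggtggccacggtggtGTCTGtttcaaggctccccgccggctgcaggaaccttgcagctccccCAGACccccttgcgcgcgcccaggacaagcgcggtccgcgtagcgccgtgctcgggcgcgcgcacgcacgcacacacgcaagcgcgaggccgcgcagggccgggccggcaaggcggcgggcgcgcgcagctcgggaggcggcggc
Smurf2: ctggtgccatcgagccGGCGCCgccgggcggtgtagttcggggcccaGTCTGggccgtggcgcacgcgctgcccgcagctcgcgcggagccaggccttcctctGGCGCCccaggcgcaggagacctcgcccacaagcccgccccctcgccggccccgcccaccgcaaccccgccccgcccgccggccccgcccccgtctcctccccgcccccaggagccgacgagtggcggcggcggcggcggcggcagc
Smurf2 holds 2 matches to GGCGCC and 1 to CAGAC, and Smurf1 holds 0 and 2. Among the other matched genes, Ski, which was not called with BMP4, holds 1 and 0, and Fstl1 holds 0 and 0. Of all 32851 promoter windows of this length, 9.59% hold GGCGCC and 42.2% hold CAGAC. Neither window matched TGANTCA, an AP-1 element found in 6.75% of windows, or the 10-base NF-kB consensus, found in 3.9%. The windows were rich in G and C, 74.8% for Smurf1 and 82.0% for Smurf2 against a median of 52.4%, and matches between these motifs did not overlap. The share of matches among windows equally rich in G and C was not computed. A match describes letters only.

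Tag totals ran from 13.7 to 15.5 M, with 20.6 M in TNFa+BMP4 replicate 2. Replicate 1 of each group forms batch 1 and replicates 2 and 3 form batch 2, so both batches hold all groups. Between batches 64.1% of tested genes differed, including 5 of the 8 studied here. Fold changes below come from limma with batch as a term, as log2 ± SE with n = 3 libraries per group and Benjamini-Hochberg adjustment over all tested genes. Levels are the deposited log2 values. As a check of the treatments, BMP4 raised the Smad targets Id1 (1.66 ± 0.08) and Id3 (1.84 ± 0.07), and TNFa raised the NF-kB targets Nfkbia (2.60 ± 0.13) and Tnfaip3 (2.52 ± 0.11). Of 10 osteoblast markers 7 were above the minimum, with the maturation genes Alpl, Bglap and Ibsp below it. Of the other markers, Cd68, Pecam1 and Acta1 were the single leukocyte, endothelial and muscle markers above it, with 0 of 4 for adipocytes. The chondrocyte genes Sox9 and Col2a1 were above it, and the mean of the 4 chondrocyte markers was 6.54 in untreated cells, 6.35 with TNFa, 6.82 with BMP4 and 6.58 with both. Their part in the results below was not tested.

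In untreated cells the levels, compared per kilobase of exon on the log2 scale, spanned a wide range. The transformation behind the deposited values is not stated. Its effect on gaps between genes at low levels, as for Nog and Bambi, was not tested. Fstl1 was highest at 12.11, followed by Smurf2 at 9.85. By its uncorrected mean over all 12 libraries, treated ones included, Fstl1 stood at the 99.6th percentile of tested genes. Smurf1 (8.21) and Ski (8.20) could not be separated, since the ranges of their 3 libraries overlapped. Fst stood at 7.44. Nog (5.46) and Skil (5.38) also overlapped, and Bambi was lowest at 2.28. Every other neighbouring pair in this order was separate in all 3 libraries. Per length, then, Smurf2 mRNA exceeded Smurf1 and Ski exceeded Skil before treatment.

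**Figure D1:**
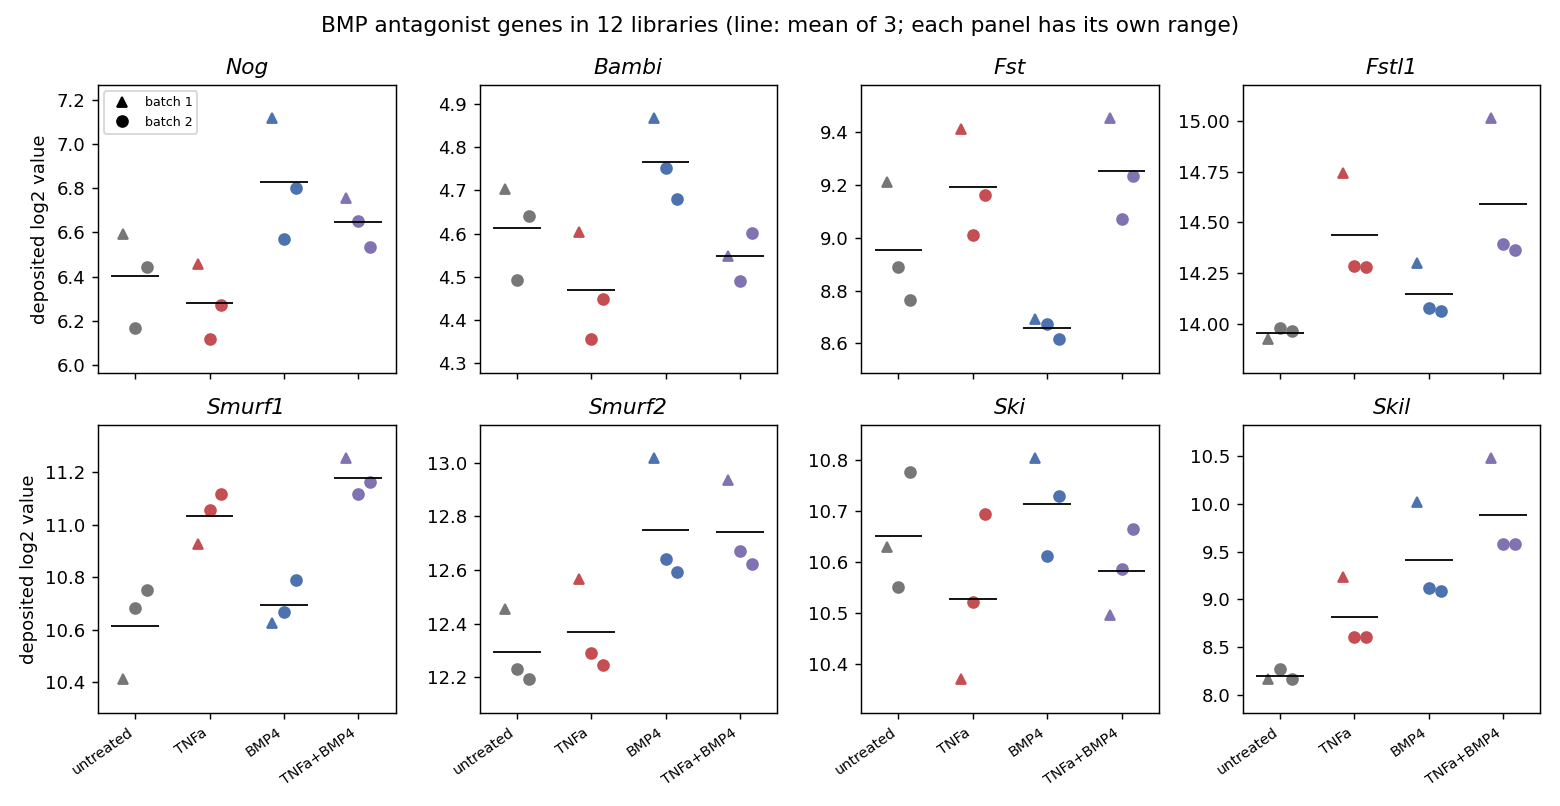
Deposited log2 value (y axis, a separate range in each panel) of the 8 genes in the 4 groups (x axis). Triangles are the batch 1 library, circles the 2 batch 2 libraries, and lines the mean of 3; Smurf1 is high wherever TNFa was given, Smurf2 wherever BMP4 was given, and Skil is lowest in untreated cells and highest with both.

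With TNFa alone 4 of the 8 genes rose and 0 fell, where 15.5% of all tested genes were called (9.16% higher and 6.32% lower). The median change of the 8 was 0.16 on the log2 scale, against -0.01 over all tested genes. The TNFa and untreated libraries did not overlap for 3 of the 8 (17% of all tested genes). BMP4 alone raised 3 and lowered 1, with 12.2% of tested genes called (6.75% higher, 5.47% lower) and a median change of 0.17 against 0.00 over all genes. Here 4 of the 8 did not overlap (14.6% of all genes). Given together, the factors raised 5 and lowered 0 relative to untreated cells, where 31.2% were called (16.8% higher, 14.4% lower), and 4 did not overlap (25.4%). BMP4 in cells given TNFa raised 3 and lowered 0 (11.7% called, 5.47% higher and 6.2% lower) and 4 did not overlap (15.8%). TNFa in cells given BMP4 raised 4 and lowered 1 (16.2% called, 8.78% higher and 7.41% lower) and 4 did not overlap (17.4%). These comparisons share libraries, so their counts are not independent. In bulk RNA, fewer cells expressing a gene and less RNA per cell cannot be told apart.

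**Figure D2:**
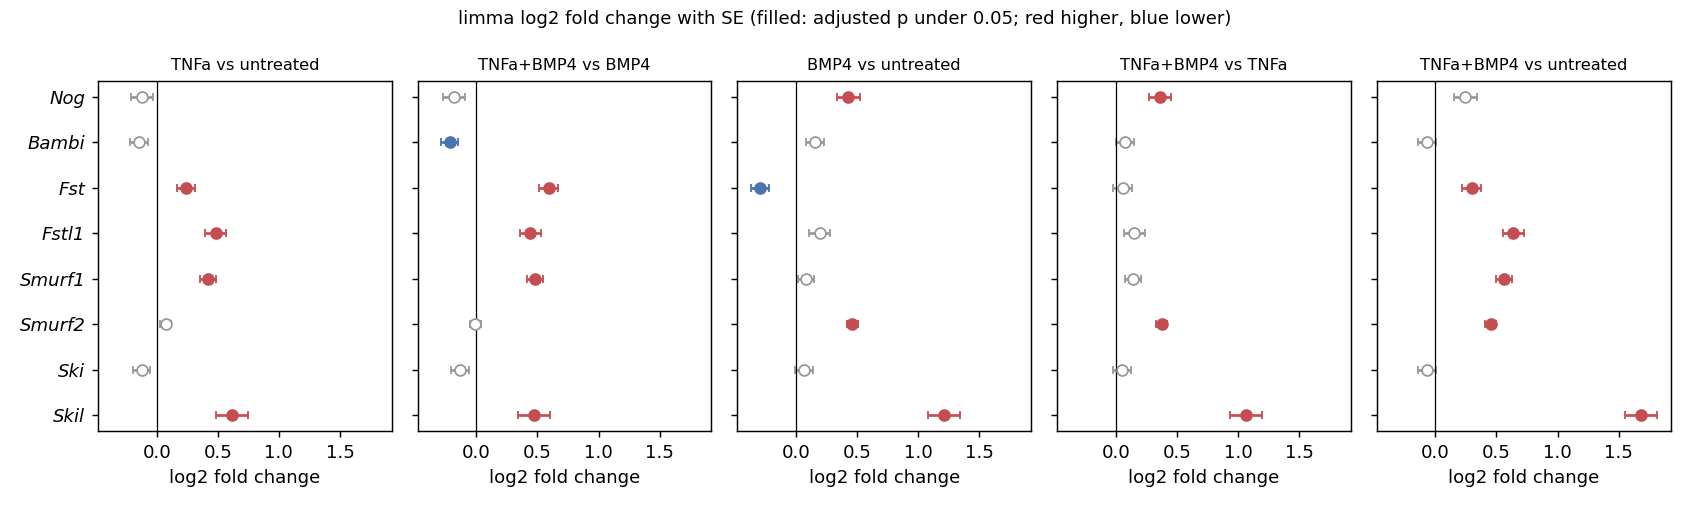
Log2 fold change (x axis) of each gene (y axis) in 5 comparisons, with bars of 1 SE, from limma over 12 libraries. Filled red points were called higher, filled blue points lower and open points were not called; Smurf1 is called in the comparisons that add TNFa and Smurf2 in those that add BMP4.

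Among the secreted antagonists, Nog followed BMP4. Noggin binds BMPs and blocks their contact with receptors, and it is known as a feedback gene of BMP signalling in osteoblasts. Its single transcript in the table, NM_008711, lies on the minus strand of chromosome 11, 89302559 to 89300638 in mm10. Its values were 6.59, 6.17 and 6.44 in untreated replicates 1 to 3, 6.46, 6.12 and 6.27 with TNFa, 7.12, 6.57 and 6.80 with BMP4, and 6.75, 6.65 and 6.53 with both. BMP4 and untreated libraries overlapped slightly across batches, while within each batch the BMP4 libraries were higher. Nog rose by 0.43 ± 0.09 with BMP4 (adjusted p = 0.00387) and by 0.36 ± 0.09 when BMP4 was added to TNFa (adjusted p = 0.0132). TNFa gave -0.12 ± 0.09 alone and -0.18 ± 0.09 on top of BMP4, neither of which passed. With both factors Nog was 0.24 ± 0.09 above untreated cells, just short of the threshold (adjusted p = 0.0505, and 0.044 with replicate number as a block). The rise on top of TNFa did not pass without TNFa replicate 1 (adjusted p = 0.0563), TNFa replicate 2 (0.0695) or TNFa+BMP4 replicate 2 (0.0723). For genes with a mean from 6 to 8 the fitted TNFa change had a slope of 0.55 on the authors' fold change. The authors' deposited table gives 0.76 for BMP4.

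Fst moved in opposite directions with the 2 factors. Follistatin is best known for binding activins and also binds several BMPs. NM_001301375 lies on the minus strand of chromosome 13, 114458951 to 114452262. Fst stood at 9.21, 8.89 and 8.76 in untreated cells, 9.41, 9.01 and 9.16 with TNFa, 8.69, 8.67 and 8.62 with BMP4, and 9.45, 9.07 and 9.23 with both. The 3 BMP4 libraries lay below those of every other group. BMP4 alone lowered Fst (-0.30 ± 0.08, adjusted p = 0.0134), and TNFa alone raised it (0.24 ± 0.08, adjusted p = 0.0371). When TNFa was present, adding BMP4 gave 0.06 ± 0.08, which did not pass, and TNFa in BMP4-treated cells raised Fst by 0.59 ± 0.08 (adjusted p = 6.48e-06). The TNFa effect was larger with BMP4 than without it by 0.35 ± 0.11, but this interaction did not pass over all genes (adjusted p = 0.717). The BMP4 difference was -0.52 in batch 1 and -0.18 in batch 2, and the fall did not pass without untreated replicate 1 (adjusted p = 0.101) or BMP4 replicate 1 (0.114). The rise with TNFa alone did not pass without untreated replicate 2 (adjusted p = 0.0674), untreated replicate 3 (0.164), TNFa replicate 1 (0.15) or TNFa replicate 3 (0.147). The authors' deposited table calls this rise, and gives the fall with BMP4 as -0.36 with an adjusted p of 0.0545.

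Fstl1, a secreted glycoprotein of the follistatin family reported to bind BMP4, was abundant and rose with TNFa. NM_008047 occupies the plus strand of chromosome 16, 37777055 to 37836516. Untreated values were 13.92, 13.98 and 13.96, and TNFa values were 14.75, 14.29 and 14.28. With BMP4 they were 14.30, 14.08 and 14.06, and with both 15.02, 14.39 and 14.37. No treated library reached down to the untreated ones. Fstl1 rose by 0.48 ± 0.09 with TNFa (adjusted p = 3.66e-04), by 0.44 ± 0.09 with TNFa in BMP4-treated cells (adjusted p = 9.03e-04) and by 0.64 ± 0.09 with both (adjusted p = 8.66e-06). BMP4 alone gave 0.19 ± 0.09 and did not pass (adjusted p = 0.158). Without untreated replicate 1 it was 0.030 (limma adjusted p = 0.877). On top of TNFa, BMP4 gave 0.15 ± 0.09, which did not pass either (adjusted p = 0.286). The authors' deposited table nevertheless calls Fstl1 higher in both comparisons, at 0.21 for BMP4 alone and 0.16 on top of TNFa. Batch 1 gave the larger differences: 0.83 for TNFa, against 0.31 in batch 2. Without untreated replicate 1 the TNFa rise was 0.32 (limma adjusted p = 0.00291).

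Bambi, which has the outer part of a receptor but cannot signal, was close to the minimum level set for testing, a mean of 4. NM_026505 lies on the plus strand of chromosome 18, 3507957 to 3516404. All 12 values lay between 4.36 (TNFa replicate 2) and 4.87 (BMP4 replicate 1). The 3 libraries with both factors, at 4.55, 4.49 and 4.60, were below the 3 BMP4 libraries, at 4.87, 4.75 and 4.68. That difference, -0.22 ± 0.07, was the 1 call for Bambi (adjusted p = 0.0436). It is a weak call. It did not pass without any 1 of BMP4 replicates 1, 2 and 3 (adjusted p = 0.122, 0.12 and 0.0615), TNFa+BMP4 replicates 1 and 2 (0.251 and 0.113) or TNFa replicate 3 (0.054), and the authors' deposited table gives -0.80 with an adjusted p of 0.238. BMP4 alone gave 0.15 ± 0.07 and TNFa alone -0.14 ± 0.07, and neither passed. Between mean values of 4 and 6 the slope of fitted on authors' TNFa changes was 0.259; what sets this slope was not tested.

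The Smurf ligases, close relatives that tag Smads and receptors for the proteasome, responded to different factors. Smurf1 (NM_001038627, minus strand of chromosome 5, 144965830 to 144876495) stood at 10.41, 10.68 and 10.75 in untreated cells and at 10.93, 11.05 and 11.12 with TNFa. With BMP4 it was 10.63, 10.67 and 10.79, and with both 11.25, 11.12 and 11.16. All 6 libraries with TNFa were above all 6 without it. Smurf1 rose by 0.42 ± 0.07 with TNFa alone (adjusted p = 8.75e-05) and by 0.48 ± 0.07 in BMP4-treated cells (adjusted p = 1.51e-05). BMP4 gave 0.08 ± 0.07 alone and 0.15 ± 0.07 on top of TNFa, and neither passed.

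Smurf2 (NM_001362894, minus strand of chromosome 11, 106920715 to 106820061) had values of 12.45, 12.23 and 12.19 in untreated cells, 12.57, 12.29 and 12.24 with TNFa, 13.02, 12.64 and 12.59 with BMP4, and 12.94, 12.67 and 12.62 with both. The 6 libraries with BMP4 were above the 6 without it. Smurf2 rose by 0.46 ± 0.05 with BMP4 alone (adjusted p = 5.99e-07) and by 0.38 ± 0.05 on top of TNFa (adjusted p = 8.7e-06). TNFa gave 0.08 ± 0.05 alone and -0.01 ± 0.05 on top of BMP4, and neither passed. The BMP4 difference was 0.56 in batch 1 and 0.41 in batch 2.

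The pair is described further by the log2 ratio of Smurf1 to Smurf2 within each library. The ratio was chosen after the values were seen, so it is given with no test. With TNFa the mean ratio was higher by 0.42, going from a mean of -1.87 in 6 libraries to -1.45 in 6, and the change was positive in all 4 combinations of batch and BMP4 (0.31 to 0.71). With BMP4 the difference was -0.31 (from -1.51 to -1.81), with values from -0.40 to -0.04 in the 4 combinations of batch and TNFa.

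**Figure D3:**
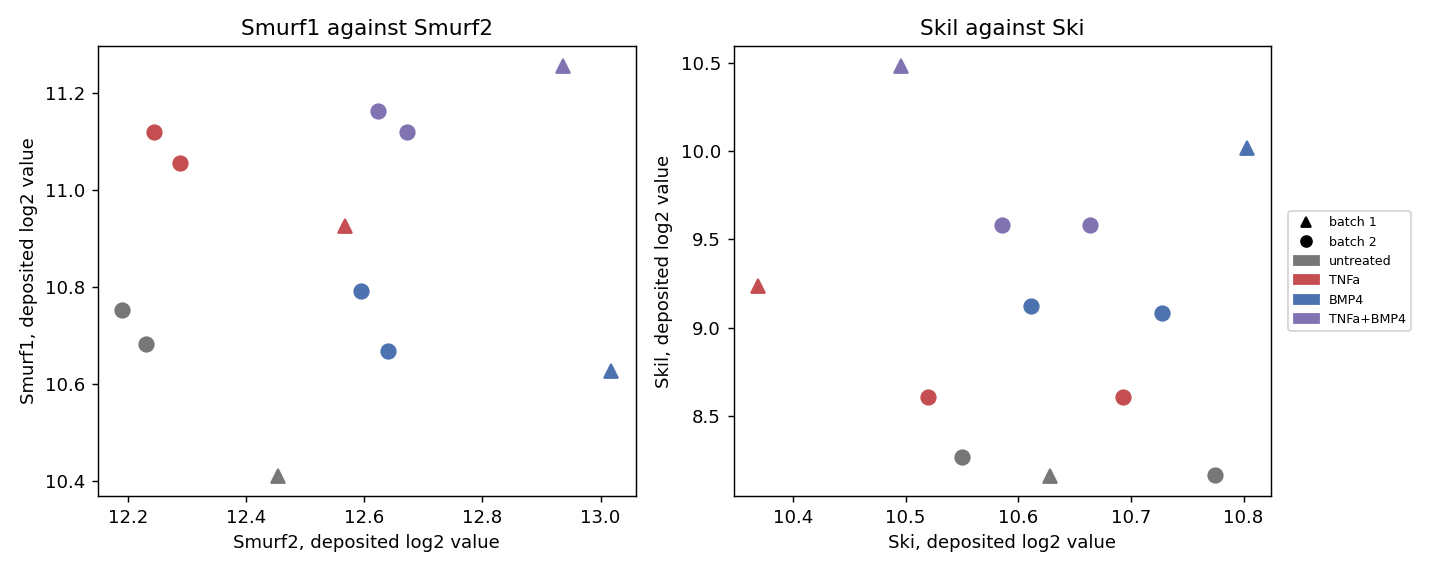
Deposited log2 value of Smurf1 (y) against Smurf2 (x), left, and of Skil (y) against Ski (x), right, with 1 point per library (triangles batch 1, circles batch 2, colours the 4 groups). TNFa libraries lie higher on the Smurf1 axis and BMP4 libraries further right on the Smurf2 axis, while Skil spans 8.16 to 10.48 and Ski 10.37 to 10.80.

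The corepressors, proto-oncogene relatives that bind Smads and recruit histone deacetylases, differed from each other as well. Skil had the largest fitted change of the 8 in 4 of the 5 pairwise comparisons. For TNFa on top of BMP4 that was Fst (0.59 ± 0.08), with Smurf1 (0.48 ± 0.07) and Skil (0.47 ± 0.13) alike. The authors' deposited table gives Smurf1 0.53 and Skil 0.54 there, with Fst at 0.71 and Bambi, not called by them, at -0.80. Fitted changes were smaller relative to the authors' at low levels, which limits the places of Bambi and Nog in this ranking. For TNFa alone the first place of Skil rested on untreated replicate 1: without it Smurf1 was at 0.33, Skil at 0.33 and Fstl1 at 0.32. SnoN is known to be induced by TGF-beta signals that it then restrains. NM_011386 lies on the plus strand of chromosome 3, 31095058 to 31122923. Skil was 8.16, 8.27 and 8.16 in untreated cells, 9.23, 8.61 and 8.61 with TNFa, 10.02, 9.12 and 9.09 with BMP4, and 10.48, 9.58 and 9.58 with both. Within each batch the order was untreated, TNFa, BMP4, then both. Skil rose by 0.62 ± 0.13 with TNFa (adjusted p = 0.00167), by 1.21 ± 0.13 with BMP4 (adjusted p = 1.5e-06) and by 1.69 ± 0.13 with both (adjusted p = 3.13e-09). BMP4 on top of TNFa added 1.07 ± 0.13 (adjusted p = 9.11e-06), and TNFa on top of BMP4 added 0.47 ± 0.13 (adjusted p = 0.0146). The latter did not pass without BMP4 replicate 2 (adjusted p = 0.0694), BMP4 replicate 3 (0.0793) or TNFa+BMP4 replicate 1 (0.131), and its value in batch 2, 0.48, was like that in batch 1, 0.46. The other Skil responses were larger in batch 1: 1.07 against 0.39 for TNFa and 1.86 against 0.89 for BMP4. Without untreated replicate 1 the TNFa rise of Skil was 0.33 (limma adjusted p = 0.0056).

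Ski (NM_011385, minus strand of chromosome 4, 155222535 to 155154075) was not called in any comparison. Its values were 10.63, 10.55 and 10.78 in untreated cells, 10.37, 10.52 and 10.69 with TNFa, 10.80, 10.61 and 10.73 with BMP4, and 10.50, 10.59 and 10.66 with both, so all groups overlapped with untreated cells. The fitted changes ran from -0.13 ± 0.07 for TNFa on top of BMP4 to 0.06 ± 0.07 for BMP4 alone. The mean log2 ratio of Skil to Ski, likewise given with no test, was higher by 0.67 with TNFa (from -1.88 to -1.21) and by 1.08 with BMP4 (from -2.08 to -1.002), with a positive difference in all 4 combinations for each factor. Per kilobase the ratio was -0.39, -1.38 and -1.45 in TNFa+BMP4 replicates 1 to 3, so Skil stayed below Ski in all 3 and was nearest to it in the batch 1 library.

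Responses of the 8 genes to 1 factor did not detectably depend on the other. For the interaction limma called 0 of the 8, with 1 (Fst) at an unadjusted p under 0.05. Only 2 of the 11765 tested genes, 0.017%, were called in that contrast. The response was also compared between batches in a fit with batch and group interacting, added after the values were seen. Batch 1 has 1 library per group, assumed to vary like those of batch 2, and its 3 differences share untreated replicate 1. The fit called 2 of the 8 for TNFa (1.05% of all tested genes), 2 for BMP4 (4.68%) and 3 for both factors (5.78%), in each case Skil and Fstl1 and with both factors also Smurf1.

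**Figure D4:**
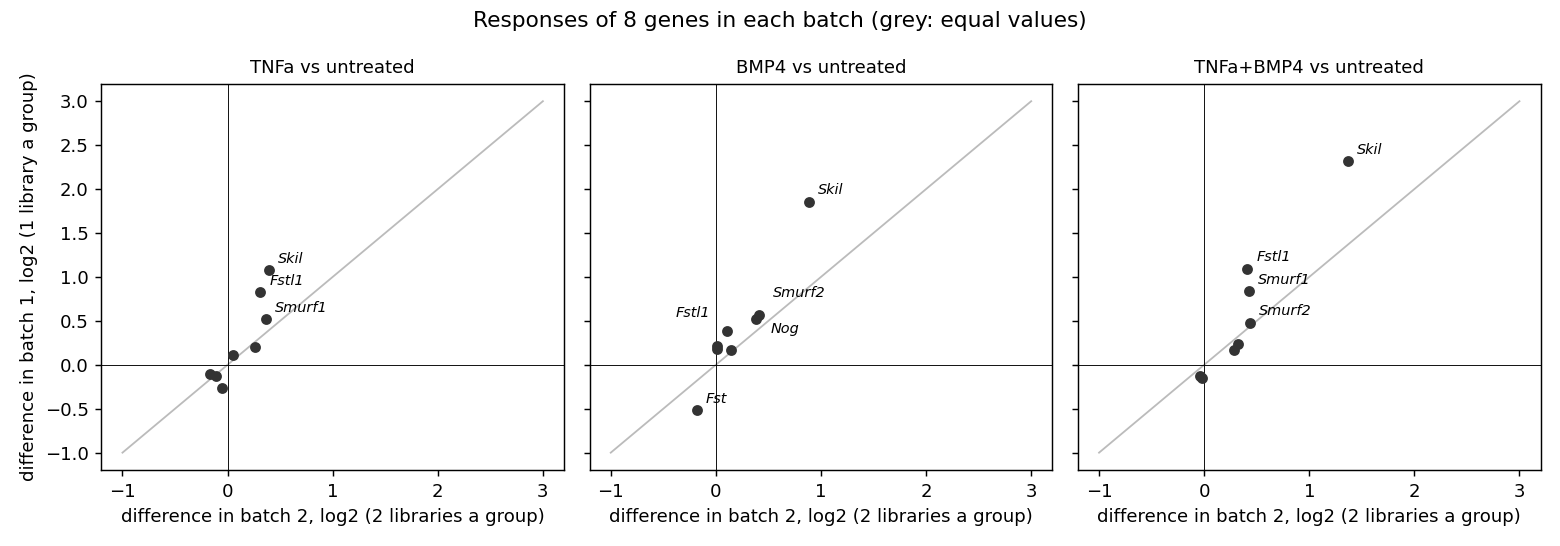
Difference from untreated libraries in batch 1 (y axis, 1 library a group) against batch 2 (x axis, 2 libraries a group) for the 8 genes, in log2, with equal values on the grey line. Skil, Fstl1, Smurf1 and Smurf2 lie above the line in all 3 panels. With both factors Skil is at 2.32 against 1.37 and Fstl1 at 1.10 against 0.41.

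Other restraining genes of the pathway, from a list chosen with earlier results of these data known, moved in both directions. Of 19 other secreted or membrane-bound antagonists and modulators, 11 were tested; the remaining 8, Grem1 and Sost among them, were below the minimum level. With TNFa 0 rose and 3 fell: Sostdc1, a BMP and Wnt inhibitor (-0.64 ± 0.11), Rgma (-0.34 ± 0.07) and chordin (Chrd, -0.30 ± 0.07). BMP4 raised Nbl1 (0.22 ± 0.05) and lowered Chrd (-0.27 ± 0.07) and Crim1 (-0.25 ± 0.06). On top of TNFa, BMP4 raised 1 and lowered 2: Nbl1 (0.31 ± 0.05), Crim1 (-0.37 ± 0.06) and Chrdl1 (-0.16 ± 0.05). On top of BMP4, TNFa raised Bmper (0.24 ± 0.08) and lowered 3, Sostdc1 (-0.58 ± 0.11), Rgma (-0.40 ± 0.07) and Chrd (-0.25 ± 0.07). With both factors 1 rose and 5 fell, with Chrd (-0.51 ± 0.07) and Rgma (-0.51 ± 0.07) changing most. The list's median change was -0.06 with TNFa and -0.05 with BMP4, against -0.01 and 0.00 over all tested genes. The share of all tested genes called was 15.5% with TNFa, 12.2% with BMP4 and 31.2% with both. It was 11.7% for BMP4 on top of TNFa and 16.2% for TNFa on top of BMP4.

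All 24 genes listed as other intracellular inhibitors were tested. Not every listed gene need act as an inhibitor, and their direction of action was not tested. TNFa raised 4 and lowered 4, with the Smad-binding transcription factor Zeb1 at 0.80 ± 0.08 and the ubiquitin ligase Wwp2 at -0.65 ± 0.07. BMP4 raised 6 and lowered 2, led by the inhibitory Smad Smad7 (1.90 ± 0.11) and by Pmepa1, a feedback inhibitor of TGF-beta signalling (1.49 ± 0.14). With both, 8 rose and 4 fell, and Smad7 (1.89 ± 0.11) and Pmepa1 (1.42 ± 0.14) had the largest changes. BMP4 on top of TNFa raised 6 and lowered 3, with Smad6 at 1.67 ± 0.10 and Pmepa1 at 1.60 ± 0.14, and TNFa on top of BMP4 raised 2 and lowered 4, with Wwp2 at -0.67 ± 0.07 and Zeb1 at 0.63 ± 0.08. TNFa alone raised Smad7 (0.34 ± 0.11) and lowered Smad6 (-0.48 ± 0.10). The list's median change was -0.01 with TNFa, -0.01 over all genes, and 0.06 with BMP4, 0.00 over all genes. The shares of all tested genes called are those given above for the secreted or membrane-bound list.

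The tested genes most like each of the 8 were found from Pearson's r of batch-centred values over the 12 libraries, which share the same 4 groups. These are descriptions. Smurf2 was most like Smad7 (0.993), Snai1 (0.99) and Enah (0.984), and Smurf1 was most like Eif6 (0.989), Eif5a (0.985) and Stat3 (0.984). Skil was closest to Zbtb38 (0.987), Tnfrsf12a (0.985) and Optn (0.983), and Fstl1 to Atp10a (0.986), Hmox1 (0.98) and Riok3 (0.977). For Nog the closest were Ppme1 (0.984), Krt42 (0.953) and Tmem151a (0.953), and for Fst they were Tmbim4 (0.96), A4galt (0.958) and Cdc42ep3 (0.95). Bambi was nearest to Erlec1 (0.956), Tcta (0.944) and Sox9 (0.936), and Ski to Bag6 (0.934), Tm9sf2 (0.919) and Flywch1 (0.918).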

How the data were processed

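The 12 polyA libraries were sequenced as 150 bp paired reads, per the labels' protocols. Trim Galore, HISAT2, HOMER and the mm10 build are named in the submitters' processing notes. Exonic reads were counted with HOMER for 1 transcript per gene and groups compared with batch as a factor, per the file headers. The authors deposited the 12 library columns as log2 values whose transformation is not stated, together with their log2 fold changes and p-values. The file numbers the batches in reverse; the labels' numbers are used. Of 25124 entries, 7423 were at 0 throughout.

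Here limma 3.58.1 in R 4.3.3 was fitted to all 12 libraries with group and batch terms and a variance trend (7 residual degrees of freedom), on genes with a mean of at least 4. Calls needed a Benjamini-Hochberg adjusted p under 0.05. The script was tested on simulated data. The genes named are the 8 members, a treatment check, the 3 genes most like each member, and from the 2 lists of other inhibitors up to 2 called genes per contrast; others in counts of 5 or fewer, and all from the list of ligands and receptors, were chosen after their values were seen. Of the list of other secreted or membrane-bound inhibitors, 1 gene is not reported here and is left out of its counts. Members and lists were chosen with earlier results of these data known. Replicates 2 and 3 were not paired across groups in the fit (correlations of their differences between groups, 0.0199 to 0.164). Other filters, scaling, batch handling, a replicate block and leaving out each library were tried.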

Additional observations from a re-analysis of the deposited data

Results flagged for a closer look

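Responses of 3 genes differed between the batches by a test of the difference itself, a fit with group and batch interacting that was added after the values were seen (limma, 4 residual degrees of freedom). Batch 1 has 1 library per group, which is assumed to vary like batch 2, and its differences all use untreated replicate 1. Skil rose more in batch 1 by 0.68 with TNFa (adjusted p = 9.53e-04), by 0.97 with BMP4 (adjusted p = 9.91e-07) and by 0.95 with both (adjusted p = 7.22e-07). Fstl1 rose more in batch 1 by 0.51 with TNFa (adjusted p = 1.95e-05), by 0.28 with BMP4 (adjusted p = 0.0185) and by 0.69 with both (adjusted p = 8.01e-09). Smurf1 rose more in batch 1 by 0.42 with both factors (adjusted p = 0.00265). Of all tested genes 1.05%, 4.68% and 5.78% differed in these ways for TNFa, BMP4 and both. In batch 2 alone the rises of Skil with TNFa (0.39), BMP4 (0.89) and both (1.37) each passed.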

How the results depend on the processing

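Of the 21 calls for the 8 genes over 6 contrasts, 16 held in each of the 12 fits that left out 1 library, and the other 5 are named with their libraries above. The number of genes called then ran from 3 to 4 for TNFa, 3 to 4 for BMP4, 5 to 6 for both, 2 to 3 for BMP4 on top of TNFa and 3 to 5 for TNFa on top of BMP4, and stayed at 0 for the interaction. In each pairwise comparison, leaving out a library of a compared group lowered the share of all tested genes called. Leaving out a library of another group raised that share in some fits. Nog with both factors, not called above, passed in 4 of the 12 fits. With no batch term the numbers were 1, 0, 2, 0 and 2 in the same order, and 16 of 21 calls were lost; the share of all tested genes called was then 3.26, 0.969, 7.39, 0.892 and 2.93%. With no filter on low values 3 were called for TNFa on top of BMP4 (Fst, Fstl1 and Smurf1), and a smaller share of all genes tested was called too. The rise of Fst with TNFa did not pass with no filter (adjusted p = 0.0798), quantile normalization (0.0638) or no variance trend (0.0521), and Nog with both factors passed under quantile normalization (0.0271), no variance trend (0.0421) and batch 2 alone (0.0449). A replicate block in place of batch changed 1 call, Nog with both factors (0.24, adjusted p = 0.044), and no other. Replicates other than by batch share only a number. Batch 2 alone lost the calls of Fst for BMP4 and of Bambi. Sign changed in 24 alternatives, none of which passed. In batch 2 alone these were Smurf2 for TNFa on top of BMP4 (0.030) and the interactions of Nog (0.018), Ski (0.011) and Skil (0.087), and with quantile normalization the interaction of Ski (0.012). The other 19 were in fits without 1 library. There Smurf1 ran from -0.0067 to 0.13 and Ski from -0.026 to 0.13 for BMP4, Ski from -0.021 to 0.13 for BMP4 on top of TNFa, and Smurf2 from -0.036 to 0.034 for TNFa on top of BMP4. The interactions ran from -0.15 to 0.0084 for Nog, -0.18 to 0.12 for Fstl1, -0.035 to 0.15 for Smurf1, -0.084 to 0.081 for Ski and -0.29 to 0.14 for Skil. Low levels limit Nog and Bambi.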

Other observations

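Of 23 genes for ligands, receptors and Smads of the BMP and TGF-beta pathways, 17 were tested; those named here were chosen after their values were seen. With TNFa 3 of the 17 were called, where 15.5% of all tested genes were, and with BMP4 8 were called, where 12.2% were. TNFa raised Smad3 (0.85 ± 0.05) and Tgfb1 (0.65 ± 0.11) and lowered Smad9 (-0.48 ± 0.11). BMP4 raised 5, namely Smad9 (1.44 ± 0.11), the receptors Bmpr2 (0.63 ± 0.06) and Acvr1 (0.28 ± 0.07), Tgfb1 (0.36 ± 0.11) and Smad1 (0.33 ± 0.09). It lowered 3, namely Tgfbr2 (-0.36 ± 0.06), Acvr2b (-0.36 ± 0.08) and Smad3 (-0.29 ± 0.05). Smad2, Smad4, Smad5, Bmpr1a, Tgfbr1 and Acvr2a were not called with either factor alone. The ligand genes Bmp2, Bmp6, Bmp7, Gdf5 and Gdf6 and the receptor gene Bmpr1b were below the minimum level.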
